A study of Mus musculus with 12 samples.

Results

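Messages of 10 genes of the integrated stress response were followed in 12 RNA sequencing libraries of C2C12, a line of mouse muscle precursors whose cells fuse into myotubes when they differentiate. The genes are Atf4, Ddit3 (which encodes CHOP), Trib3, Chac1, Atf3, Atf5, Sesn2, Ddit4, Ppp1r15a and Cebpb, taken from the count table by symbol. These genes and the related lists below were chosen with earlier results of these data known. Counts of calls among them are therefore a description and no independent support. The genes matched 11 of 56941 rows of the count table, because Ddit3 has a second identifier, which was listed at 0 in every library. All 10 passed the filter on low counts. The ChR2 group held 6 wells of C2C12 with the genotype ChR2::tdTomato, a light-gated cation channel joined to a red fluorescent protein. The wild-type group held 6 wells of C2C12 without that transgene. Wells of both groups were seeded on fibrin gels 1 mm thick made with 8 mg of fibrinogen per mL, and spent 2 days in growth medium followed by 6 days in differentiation medium with horse serum and IGF-1. Aminocaproic acid was present at 1 mg per mL in both media. No light stimulation is mentioned, separate cultures are not stated for the wells, and neither the promoter of the transgene nor the clonality of the line is given. The p-values therefore measure only the spread between these wells, and the transgene and the history of each line cannot be told apart.

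In the integrated stress response, kinases that sense different stresses phosphorylate the translation factor eIF2. General protein synthesis then slows while the ATF4 message is translated more efficiently, so much of the control of ATF4 lies at translation, which RNA counts do not measure. ATF4 induces genes of amino acid supply and a set of regulators that includes CHOP, ATF3 and ATF5. TRIB3 and GADD34, the product of Ppp1r15a, act as feedback on the pathway. In muscle cells, transient signalling of this kind accompanies differentiation, and prolonged signalling is known from mitochondrial and reticulum stress.

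Short stretches of promoter sequence are shown because ATF4, paired with a C/EBP protein, binds a composite element whose core reads TGATGNAA. All 10 genes matched the RefSeq promoter table (build GRCm38.p6), giving 11 start sites. In the 250 bases before each start, on both strands, that core was found for Chac1 and Atf3, in both cases as the fuller TGATGCAA. The core occurs in 3.45% and the fuller form in 0.791% of all 32851 windows of that length. Capitals mark it below, together with the cyclic AMP response element TGACGTCA and its shorter form TGACGT, which is contained in the longer one. Sequences run 5′ to 3′ along the strand of the gene.
Chac1, chr2:119351009-119351096, plus strand, from 233 to 146 bases before the start: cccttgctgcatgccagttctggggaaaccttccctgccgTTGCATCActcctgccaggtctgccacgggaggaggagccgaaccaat
Atf3, chr1:191183334-191183463, minus strand, the last 130 bases before the start: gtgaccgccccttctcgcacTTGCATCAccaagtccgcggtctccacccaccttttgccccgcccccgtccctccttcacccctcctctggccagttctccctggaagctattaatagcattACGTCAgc
Ppp1r15a, chr7:45526269-45526358, minus strand, the last 90 bases before the start: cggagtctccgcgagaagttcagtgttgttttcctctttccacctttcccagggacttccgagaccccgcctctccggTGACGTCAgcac
The composite element began 193 bases before the start of Chac1 and 110 before that of Atf3, and both read TTGCATCA on the strand of the gene. Ppp1r15a alone of the 10 held TGACGTCA, 12 bases before its start, an element found in 1.55% of all windows. TGACGT was found for Atf3 and Ppp1r15a, and in 6.47% of windows. The genes with the largest differences between the lines, Ddit3 and Trib3, held none of these motifs in the 250 bases, of which the last 100 are shown.
Ddit3, chr10:127290693-127290792, plus strand: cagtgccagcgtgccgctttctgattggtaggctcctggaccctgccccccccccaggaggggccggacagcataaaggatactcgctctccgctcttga
Trib3, chr2:152344061-152344160, minus strand: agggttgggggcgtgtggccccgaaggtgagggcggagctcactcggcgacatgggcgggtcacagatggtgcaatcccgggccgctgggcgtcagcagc
The endoplasmic reticulum stress element, searched as CCAAT, 9 bases of any kind and CCACG (0.113% of windows), was found for none of the 10 genes. The antioxidant response element TGACNNNGC (10.2% of windows) was found for Sesn2 only. These are matches of letters in 1 window per start site and say nothing about sites farther away.

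Total estimated counts were between 7388761 and 13628569 in 10 libraries, and 1061068 and 2809669 in wild-type wells 2 and 5. Those wells stood apart in the RNA they held: the 7SL RNA, which lacks a poly(A) tail, took 24.8% and 8.37% of their counts against at most 0.0341% elsewhere, and mitochondrial messages took 0.0843% and 0.211% against at least 0.67% elsewhere. The labels mention ribosomal RNA depletion for samples of low input without naming them. The test of each of the 10 genes and the counts for each related list are therefore given with and without this pair of wells. Myogenin (Myog), a factor of terminal muscle differentiation, was present at 441 to 606 CPM in ChR2 wells and 657 to 1346 CPM in wild-type wells. Some markers of leukocytes (Ptprc), endothelium (Pecam1, Cdh5), neurons (Rbfox3, Snap25) and adipocytes (Adipoq) stood at no more than 0.415 CPM in any well. Levels are CPM, that is counts relative to TMM-scaled library sizes, unless TPM, which also accounts for length, is named. Of 10 myoblast and myotube markers, Myf5 was called higher in ChR2 wells and Myog, Des and Ttn lower. Over all genes tested, 14% were called higher and 14.1% lower with 12 libraries, or 18.9% and 16.3% without wild-type wells 2 and 5. Markers of other cell types with enough counts to test were Cd68 (macrophage and leukocyte list), Map2 (neuron list), and Pdgfra, Col1a1 and Dcn (fibroblast list). Of these, only Map2 was called (higher). Without wild-type wells 2 and 5, Myf5 (adjusted p = 0.0663) and Des (adjusted p = 0.112) were no longer called, Mymk, the fusion protein myomaker, was called lower (-0.62 in log2), and Ttn had a value of -0.79, closer to 0 than over 12 libraries. The part of these markers in the results below was not tested. In bulk RNA, a change in cell composition and a change in RNA per cell cannot be told apart.

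ChR2 wells held more message of Ddit3, Trib3, Chac1, Sesn2, Atf5 and, by a smaller margin, Atf4 itself. Ddit3 and Trib3 stood at 2.83 and 2.88 times their wild-type level, Chac1 at 2.06 times, and Atf4 at 1.29 times. Cebpb was the 1 gene called lower, a call that was lost without wild-type wells 2 and 5. Atf3 and Ddit4 were not called over 12 libraries and were called higher when that pair was left out; limma's voom with sample quality weights called both higher with all 12 libraries (adjusted p = 0.0193 and 0.0367), and Ppp1r15a was called in neither fit. In all, 6 of the 10 genes were called higher and 1 lower over 12 libraries, where 14% of the 13168 genes tested were called higher and 14.1% lower, 28.1% in all (edgeR's quasi-likelihood test, with p adjusted by Benjamini-Hochberg over all genes and a threshold of 0.05). Without wild-type wells 2 and 5, 8 of 10 were called higher and 0 lower, where 18.9% and 16.3% of 13484 genes were, 35.2% in all. Ppp1r15a and Cebpb are the members not called there; Cebpb had an unadjusted p of 0.0539 and Ppp1r15a one of 0.845. The median log2 fold change, ChR2 over wild type, was 0.48 over the 10 genes and -0.02 over all genes tested, or 0.56 and -0.0014 without the pair. In 5 genes, Ddit3, Trib3, Chac1, Sesn2 and Atf4, every ChR2 well lay above every wild-type well, as it did for 8.57% of all genes tested, and for 0 of the 10 every ChR2 well lay below (6.52% of all genes). Without wild-type wells 2 and 5 these same 5 genes were free of overlap, against 13.7% of all genes on the higher side and 11.2% on the lower side.

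**Figure D1:**
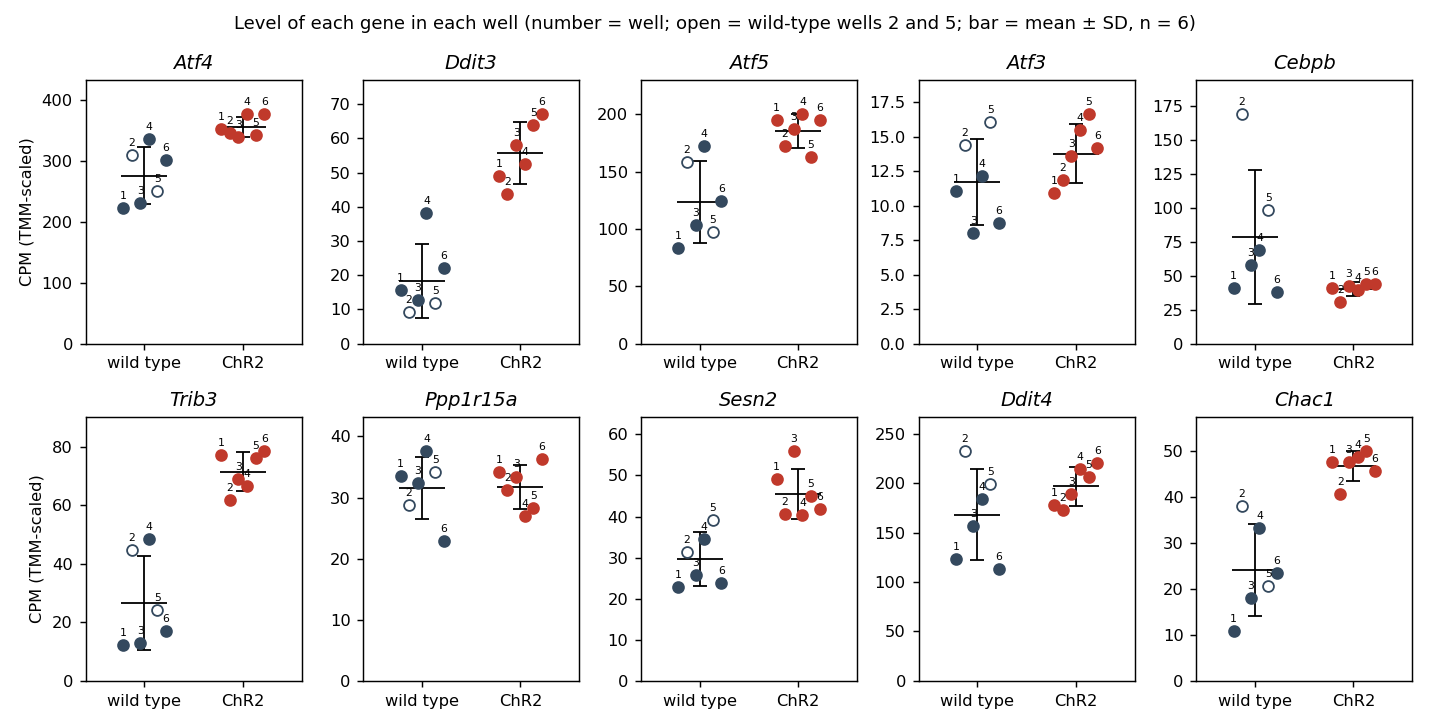
Level of each of the 10 genes in each well, in CPM on TMM-scaled library sizes (vertical axes start at 0), by line; each point is 1 well with its number, open points are wild-type wells 2 and 5, and bars are the mean ± SD over 6 wells. Every ChR2 well lies above every wild-type well for Atf4, Ddit3, Trib3, Sesn2 and Chac1, and for Cebpb wild-type wells 2 and 5 are the highest, at 169 and 98.1 CPM.

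Atf4 encodes the transcription factor at the centre of the response. Its level ran from 339 to 377 CPM in ChR2 wells, with a median of 350.3, and from 224 to 337 CPM in wild-type wells, with a median of 277. The lines did not overlap, but wild-type well 4, at 337 CPM, came within 3 CPM of the lowest ChR2 well, and the exact Poisson 95% interval of well 2, 272 to 353 CPM, reaches into the ChR2 range. Atf4 rose by a log2 fold change of 0.37 (SE 0.12, edgeR adjusted p = 0.0352), or 0.40 (adjusted p = 0.0186) without wild-type wells 2 and 5. This call was thin: it was kept in 3 of 12 fits that each left out 1 well, and was lost without any 1 ChR2 well or wild-type well 1, 3 or 5 (adjusted p up to 0.0845).

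Ddit3 encodes CHOP, a C/EBP family factor that ATF4 induces and that promotes cell death when stress persists. ChR2 wells held 43.7 to 67.1 CPM, with a median of 55.3. Wild-type wells 1 to 6 held 15.8, 9.17, 12.6, 38.2, 11.8 and 22.1 CPM. Every wild-type well but well 4 was at or below 22.1 CPM, and well 4 approached the lowest ChR2 well without reaching it. The mean was 55.7 ± 8.99 against 18.3 ± 10.7 CPM (SD, n = 6 each), a log2 fold change of 1.50 (SE 0.26, edgeR adjusted p = 0.000983), and 1.34 without wells 2 and 5 (adjusted p = 0.00414). Well 2 rested on 7 counts, whose exact Poisson 95% interval of 3.69 to 18.9 CPM stays below all ChR2 wells. Such intervals cover counting error only. The row with the second Ddit3 identifier overlaps the first gene in the GENCODE annotation, and its division of reads cannot be checked here.

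Atf5 encodes a relative of ATF4 that is translated under the same control and is tied to the mitochondrial stress response. It ran from 163 to 200.1 CPM in ChR2 wells and from 83.4 to 173 CPM in wild-type wells, with medians of 191 and 114. The ranges overlapped through wild-type well 4 at 173 CPM, above the lowest ChR2 well, while well 2 was at 159 CPM. Atf5 rose by a log2 fold change of 0.60 (SE 0.16, edgeR adjusted p = 0.0148), and by 0.63 without wells 2 and 5 (adjusted p = 0.0096).

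Atf3 encodes a factor that many stresses induce, growth factor signals among them. It was the least abundant of the 10 genes, at 10.9 to 16.6 CPM in ChR2 wells and 8.01 to 16.1 CPM in wild-type wells. The ranges overlapped almost wholly over 12 libraries, where the 2 highest wild-type values, 16.1 and 14.4 CPM, were those of wells 5 and 2. The difference for Atf3 was 0.30 on the log2 scale (SE 0.18, edgeR adjusted p = 0.228). Without those wells it was 0.48 (SE 0.16, adjusted p = 0.0297), with 13.8 ± 2.16 CPM in 6 ChR2 wells against 9.99 ± 1.93 CPM in 4 wild-type wells.

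Cebpb encodes C/EBP-beta, which can pair with ATF4 and also acts in myoblasts as a restraint on differentiation. ChR2 wells ran from 30.4 to 43.9 CPM. Wild-type wells 1 to 6 held 40.7, 169, 57.8, 68.9, 98.1 and 38.2 CPM. The highest values were those of wells 2 and 5, and wells 1 and 6 lay within the ChR2 range. The log2 fold change was -0.88 (SE 0.29, edgeR adjusted p = 0.0372) over 12 libraries and -0.34 (SE 0.16, adjusted p = 0.116) without wells 2 and 5. The fit without well 2 alone gave -0.56 (adjusted p = 0.0594), and without well 5 alone -0.74 (adjusted p = 0.083). Leaving out any 1 ChR2 well also ended the call, with fold changes between -0.91 and -0.82.

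**Figure D2:**
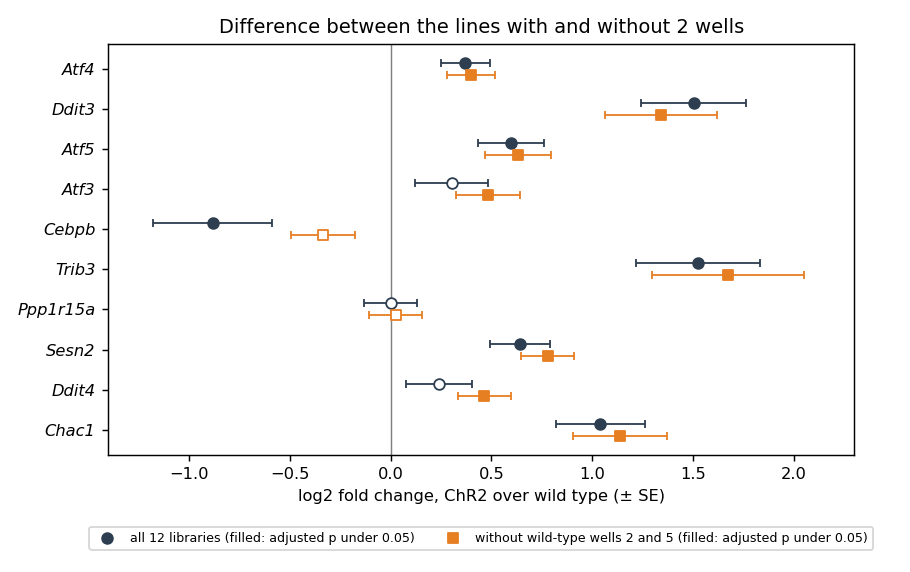
Log2 fold change of each gene, ChR2 over wild type, with its SE (horizontal axis, linear in log2 units), from edgeR over all 12 libraries (circles) and without wild-type wells 2 and 5 (squares); filled symbols have an adjusted p under 0.05. Ddit3 and Trib3 stand farthest to the right in both fits, Ppp1r15a stands at 0.00052 and 0.026, and Cebpb moves from -0.88 to -0.34.

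Trib3 encodes a pseudokinase that binds ATF4 and CHOP, dampens their activity and interferes with AKT signalling. ChR2 wells held 61.8 to 78.3 CPM, with a median of 72.4. Wild-type wells 1 to 6 held 12.2, 44.6, 12.9, 48.5, 24.3 and 16.9 CPM. Wells 2 and 4 were the highest wild-type wells, and both measured below every ChR2 well. The 34 counts behind well 2 give an exact Poisson 95% interval of 30.9 to 62.3 CPM, which reaches the lowest ChR2 well. Trib3 rose by a log2 fold change of 1.53 (SE 0.31, edgeR adjusted p = 0.00258), or by 1.67 (SE 0.38, adjusted p = 0.00763) without wells 2 and 5. The highest of the 4 remaining wild-type wells held 3.99 times the Trib3 of the lowest, compared with 1.27 times among the 6 ChR2 wells.

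Ppp1r15a encodes GADD34, the stress-induced subunit that directs protein phosphatase 1 to eIF2 and ends the response. It ran from 26.9 to 36.3 CPM in ChR2 wells and from 22.9 to 37.5 CPM in wild-type wells. The range of the ChR2 wells lay inside that of the wild-type wells. The log2 fold change was 0.00052 (SE 0.13, edgeR adjusted p = 0.998), and 0.026 (SE 0.13, adjusted p = 0.9) without wells 2 and 5. Its sign turned in some other fits, with values between -0.092 and 0.15.

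Chac1 encodes an enzyme that breaks down glutathione and is induced by ATF4. It stood at 40.5 to 49.9 CPM in ChR2 wells. Wild-type wells 1 to 6 held 10.8, 38, 18.1, 33.1, 20.7 and 23.5 CPM. The lines did not overlap, although the 29 counts behind well 2 give an exact Poisson 95% interval of 25.5 to 54.6 CPM that takes in the whole ChR2 range. Chac1 rose by a log2 fold change of 1.04 (SE 0.22, edgeR adjusted p = 0.00342), and by 1.14 (adjusted p = 0.00348) without wells 2 and 5.

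Sesn2 and Ddit4 encode stress-induced brakes on the growth kinase mTORC1: Sestrin2, which senses leucine, and REDD1, which is also a known target of hypoxia and glucocorticoids. Sesn2 ran from 40.4 to 55.8 CPM in ChR2 wells and from 22.9 to 39.2 CPM in wild-type wells. The highest wild-type well for Sesn2 was well 5, and without wells 2 and 5 the highest was well 4 at 34.5 CPM. The interval of well 2, 20.2 to 46.8 CPM from 24 counts, reaches into the ChR2 range. Sesn2 rose by a log2 fold change of 0.64 (SE 0.15, edgeR adjusted p = 0.00574), or 0.78 (SE 0.13, adjusted p = 0.000605) without that pair. Ddit4 ran from 173 to 219.9 CPM in ChR2 wells and from 113 to 232 CPM in wild-type wells. For Ddit4 the highest wild-type wells were wells 2 and 5, at 232 and 199 CPM. Its log2 fold change was 0.24 (SE 0.16, adjusted p = 0.289), and 0.47 (SE 0.13, adjusted p = 0.0139) without them.

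**Figure D3:**
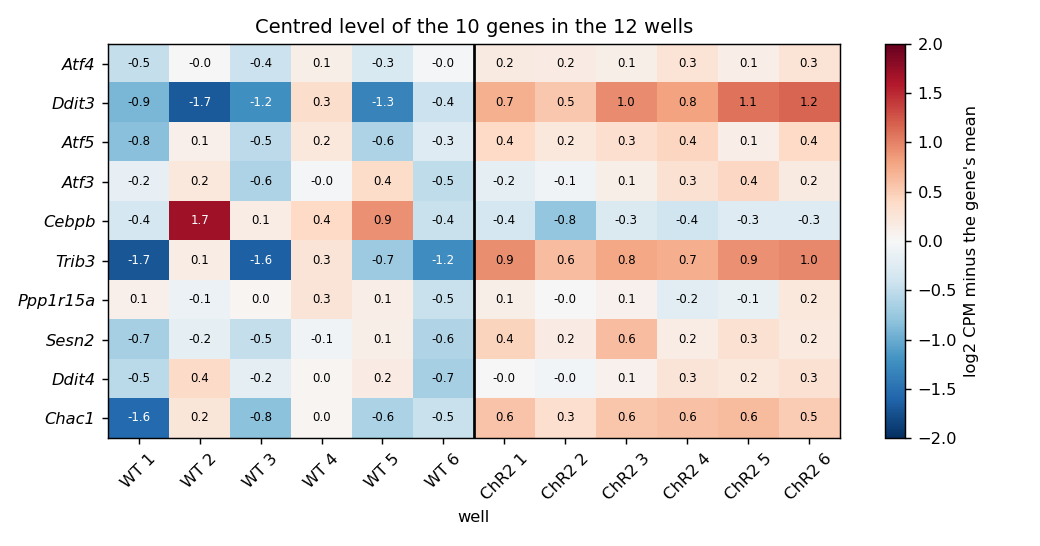
Log2 CPM of each gene in each well minus the gene's mean over the 12 wells (colour and printed value, log2 units, red above and blue below the mean), wild-type wells left of the line. Ddit3 and Trib3 span the widest range among wild-type wells besides Cebpb, and wild-type well 4 is the highest of wild-type wells 1, 3, 4 and 6 for all 10 genes.

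The ratio of the highest to the lowest well was larger across the 4 wild-type wells besides 2 and 5 than across the 6 ChR2 wells for 9 of the 10 genes, Atf3 being the exception at 1.51 against 1.53. Among these 4, well 4 was the highest for all 10 genes. It held 3.03 times the Ddit3, 3.07 times the Chac1 and 2.07 times the Atf5 of the lowest, while across the 6 ChR2 wells the ratios were 1.54, 1.23 and 1.23. How often the wider wild-type range or the top rank of well 4 occurs over all genes was not counted. Neither is therefore shown to be particular to these 10. Wells 1 and 3, which held the least Trib3 in the series, held the most Nqo1, a quinone reductase that NRF2 induces, at 159 and 101 CPM. Nqo1 was at 20.2 CPM in well 4 and 12.3 CPM in well 6, where Trib3 was at 48.5 and 16.9 CPM, so well 6 was low in both. Over all 6 wild-type wells Nqo1 was at 72.1 ± 54.6 CPM (SD), which places wells 2 and 5 between wells 3 and 4. Trib3 was at 44.6 CPM in well 2 and 24.3 CPM in well 5, so well 2 was not low in either gene. ChR2 wells held at most 8.55 CPM of Nqo1. The part of such differences between wells in the results for the 10 genes was not tested.

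Per length, Atf4 was the most abundant of the 10 in both lines, at 292 ± 17.7 TPM in 6 ChR2 wells and 235 ± 40.4 TPM in the 4 wild-type wells besides 2 and 5. In ChR2 wells Ddit4 (159 ± 10.8 TPM), Atf5 (145 ± 16.5) and Ddit3 (106 ± 16.1) followed, then Trib3 (50.2 ± 7.09), Chac1 (40.9 ± 4.66), Cebpb (38.8 ± 6.08), Ppp1r15a (19.3 ± 3.96), Sesn2 (17.6 ± 3.85) and Atf3 (11.6 ± 1.84). The ranges of mean ± SD overlapped for Ddit4 and Atf5, for Trib3, Chac1 and Cebpb, and for Ppp1r15a and Sesn2. Genes were not compared well by well, so these overlaps do not show that their levels were equal. In those 4 wild-type wells, Cebpb (52.5 ± 15.9 TPM) came after Atf5 (98.7 ± 29.6) and overlapped Ddit3 (45 ± 21.4), and Trib3 (16.8 ± 13.2) overlapped Chac1 (19.5 ± 8.28) and Ppp1r15a (19.7 ± 4.55).

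The genes whose centred log2 CPM over the 12 wells came closest to Trib3 were Pck2, which encodes mitochondrial phosphoenolpyruvate carboxykinase, Ndrg1 and Sod3, with root-mean-square differences of 0.26, 0.29 and 0.31. For Ddit3 they were Sema3c, Plod2 and Kcnk2, each at 0.31, and for Atf4 they were Gnptg (0.10), Aga (0.12) and Serpinh1 (0.12). Among the 10 genes themselves the closest pair was Atf4 and Atf5 (0.19), and the farthest was Ddit3 and Cebpb (1.53). These distances hold the difference between the lines as well as the spread between wells, and are a description.

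Most genes of amino acid synthesis under ATF4 rose: 8 of 9 tested were called higher and 0 lower, with a median of 0.79 on the log2 scale, and 9 of 9 were called higher without wild-type wells 2 and 5. Over all genes tested, 14% were called higher with 12 libraries and 18.9% without that pair. Shmt2, a mitochondrial enzyme of serine and one-carbon metabolism, was at 148 ± 16.1 against 86.3 ± 9.96 CPM (SD, n = 6 each, as for all levels of related genes), a rise of 0.79 in log2 (edgeR adjusted p = 0.000311). Aldh18a1, which starts proline synthesis, was at 120.4 ± 12.3 against 51.6 ± 18.1 CPM, and Psph, the last enzyme of serine synthesis, at 40.2 ± 4.35 against 22.9 ± 4.28 CPM. Of 9 amino acid transporters, 3 were called higher: Slc1a4 (log2 fold change 1.25), Slc7a5 (0.77) and Slc1a5 (0.47). Without that pair of wells 5 were called, adding Slc3a2 and Slc7a1, named after their values were seen. Over 12 libraries 7 of the 9 transporters had a positive log2 fold change. The others, Slc7a11 (-0.46), which is also on the NRF2 list, and Slc38a2 (-0.06), were not called and were likewise named afterwards. Of 20 cytosolic aminoacyl-tRNA synthetases, which charge tRNAs with amino acids, 6 were called higher and 0 lower. Cars (0.57), Wars1 (0.52) and Tars (0.45) had the smallest p, and the count was 9 without the pair of wells.

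Above ATF4, the 9 tested genes of eIF2 control held 1 higher and 1 lower call, no more than the shares over all genes (14% and 14.1%). Eif2ak3, which encodes the reticulum stress kinase PERK, was at 22.5 ± 1.14 against 15.3 ± 2.48 CPM, a rise of 0.60 in log2 (edgeR adjusted p = 0.00227). Eif2ak1, which encodes the heme-regulated kinase HRI, was at 33.8 ± 4.14 against 47.5 ± 6.47 CPM, a change of -0.50 in log2 (adjusted p = 0.00649). Of 8 tested partners of ATF4 from the ATF and C/EBP families and other transcription regulators, 3 were called higher and 0 lower. They were Nupr1 (1.02), a stress-induced chromatin protein, Cebpg (0.85), the C/EBP partner of ATF4, and Jun (0.40). Paralogs of the 10 genes gave 0 higher calls and 1 lower call of 7 tested, near the share over all genes. Trib1 fell by 0.73 (adjusted p = 0.00493), while Trib2 (0.40), Chac2 (0.36), Sesn1 (-0.07), Sesn3 (-0.10), Ddit4l (-0.09) and Ppp1r15b (-0.22) were not called, with adjusted p of 0.254 or more. The genes called on these 3 lists were also called without wild-type wells 2 and 5, and no other gene of them was.

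Of 17 other genes under ATF4 or CHOP, 3 were called higher and 1 lower, near the 14% and below the 14.1% over all genes. The median of the list was 0.19 in log2. Ero1a, an oxidase of the reticulum that CHOP induces, was at 787 ± 112 against 212 ± 137 CPM (log2 fold change 1.89, edgeR adjusted p = 0.000555), and in wild-type well 4 it was at 484 CPM. Vegfa, the angiogenic factor, rose by 0.94 and Gpt2, an alanine aminotransferase, by 0.59. Sqstm1, the autophagy receptor p62 and also a target of NRF2, fell by 1.30. Without wild-type wells 2 and 5 the counts were 5 higher and 2 lower (18.9% and 16.3% over all genes), with Gdf15, Jdp2 and, among the lower, Map1lc3b added, all named after their values were seen. Gdf15, which encodes a stress hormone, differed by 0.61 in log2 (edgeR adjusted p = 0.0867) over 12 libraries and 1.09 without that pair, in which it stood at 34.1 and 46.7 CPM against 14.4 to 17.4 CPM in the other wild-type wells.

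In the IRE1 and ATF6 branches of the unfolded protein response, higher calls over 12 libraries came at about the share over all genes (14%), and lower calls below it (14.1%). Of 16 genes of these branches, Ern1 (IRE1) and Atf6 themselves included, 2 were called higher and 0 lower. The 2 were the chaperone Hsp90b1 (log2 fold change 0.81) and Pdia4 (0.34), and the median of the list was -0.03. Hspa5, the chaperone BiP and an emblem of reticulum stress, was named for that role: its level was 564 ± 41.4 CPM in ChR2 wells and 582 ± 196 CPM in the wild type (-0.05 in log2, edgeR adjusted p = 0.886). Without wild-type wells 2 and 5, 4 of the 16 were called higher and 1 lower, against 18.9% and 16.3% of all genes. Edem1 and Ern1 were added among the higher and Dnajb9 was the lower, all named after their values were seen. In the mitochondrial unfolded protein response list, 2 of 6 were called higher, a larger share than the 14% over all genes, in a list of few genes. They were the protease Lonp1 (0.80) and the chaperone Hspa9 (0.60). Both were also called without that pair, where 18.9% of all genes were called higher, and no other gene of the list was.

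**Figure D4:**
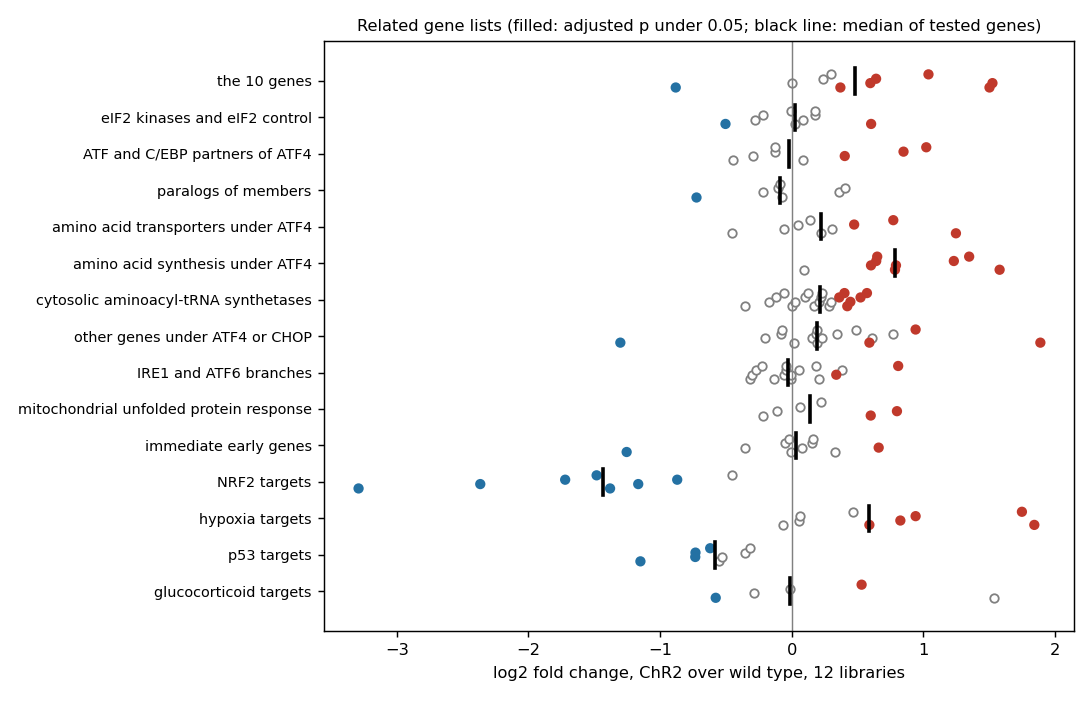
Log2 fold change, ChR2 over wild type over 12 libraries (horizontal axis), of every tested gene of the 10 and of each related list; filled points have an adjusted p under 0.05, open points do not, and black lines are medians. Amino acid synthesis genes have 8 of 9 points filled on the right, NRF2 targets 7 of 8 on the left, and IRE1 and ATF6 genes gather around 0.

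Several of the 10 genes also respond to inputs other than ATF4, and lists for those inputs held calls as well. Of 9 hypoxia targets, 5 were called higher and 0 lower, among them Ndrg1 (log2 fold change 1.75), Car9 (1.84) and Vegfa (0.94), which is on 2 lists, and 7 were called higher without wild-type wells 2 and 5. Of 8 p53 targets, 0 were called higher and 4 lower, among them Trp53inp1 (-1.15), Mdm2 (-0.73) and Cdkn1a (-0.62), and 5 were called lower without that pair. Of 8 NRF2 targets, 0 were called higher and 7 lower, led in p by Nqo1 (-3.29), Hmox1 (-2.37) and Gclc (-0.87), and 5 were lower without wild-type wells 2 and 5. Glucocorticoid targets gave 1 higher call, Fkbp5 (0.53), and 1 lower, Tsc22d3 (-0.58), of 5, and both were also called without the pair. Of 10 immediate early genes, Myc rose (0.66) and Fosb fell by 1.25 over 12 libraries, and without the pair of wells Myc and Ier2 were called higher and 0 lower. The shares over all genes were 14% higher and 14.1% lower with 12 libraries and 18.9% and 16.3% without the pair. The part of these inputs in the values of the 10 genes was not tested.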

How the data were processed

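The deposited data were 2 matrices by the authors over 56941 gene identifiers and 12 libraries, 1 of estimated counts and 1 of TPM. Per the labels' protocols, poly(A) RNA was sequenced as paired reads of 50 bases after 14 cycles of PCR. The submitters' processing notes name Salmon, STAR, bedtools 2.25.0 and BWA 0.7.12-r1039 as tools and GRCm39, mm10 and hg19 as builds, without their roles. The genotype label gave the groups and the titles gave the replicate numbers. All per-sample columns were mapped, with 0 unused.

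Estimated counts were rounded, filtered by filterByExpr (minimum count 10), scaled by TMM and tested with edgeR 4.0.16 (R 4.3.3) by its robust quasi-likelihood test with the line as the only term, adjusted over all genes at a threshold of 0.05. Log2 CPM for distances used a prior count of 2. Pairs of libraries of 1 line differed beyond sampling noise (lowest chi-square per degree of freedom 5.09), so none was taken as deposited again. Alternatives used limma 3.58.1, DESeq2 1.42.0 and the deposited TPM as log2(TPM + 1) or log2(TPM + 0.1), keeping genes that reached 1 TPM in 6 of them. The members and gene lists were chosen with earlier results of these data known. Named genes were the 10 members, up to 3 called genes of smallest p per list and direction, all paralogs, and the 3 nearest genes, of at least 5 CPM, to Atf4, Ddit3 and Trib3. Figures were drawn with matplotlib 3.10.9.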

Additional observations from a re-analysis of the deposited data

Results flagged for a closer look

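Of 20 sets of 6 wells tested (10 genes in each line), 1 held a well far from the rest by Dixon's test at the 95% level, as chance gives for about 1 in 20. Cebpb in ChR2 well 2 stood at 30.4 CPM, below the next well at 39.6 CPM, a gap of 0.679 of the whole range.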

How the results depend on the processing

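Chac1 and Trib3 stayed called higher under all 26 alternatives. Ddit3 lost its call under 1, log2(TPM + 0.1) (adjusted p = 0.0581), and Sesn2 and Atf5 under 2, both TPM fits over 12 libraries. Atf4 lost its call under 13 and Cebpb under 17, while Atf3 and Ddit4 were each called higher under 5, voom over all 12 libraries and the 4 fits without wild-type wells 2 and 5. The count of 6 genes called higher was 3 with log2(TPM + 1) and 2 with log2(TPM + 0.1), fits in which the median of all genes moved to 0.35 and 0.43; the cause was not tested. In them 592 and 254 of all genes were called higher and 28 and 17 lower, and voom with quality weights called 2781 higher. With log2(TPM + 1) in the 10 libraries without those wells, 8 of the 10 genes were called higher, and the median of all genes was -0.083. This alternative was added after seeing the data, like the size factors and voom fits there. The count of 1 gene called lower became 0 with upper-quartile scaling, without a filter, in both TPM fits and in every fit without wild-type wells 2 and 5. Leaving out 1 library at a time gave 5 to 6 genes called higher and 0 to 1 called lower. With the replicate number as a block, 5 of the 10 genes were called higher and 0 lower, Atf4 had an adjusted p of 0.0603, and 1171 of all genes were called lower. The replicate numbers are not stated to mark a shared batch. Same-numbered wells correlated between -0.14 and 0.10 in their deviations from the line means. Of the 6 ChR2 wells, 1 correlated best with its own number. The line means include wild-type wells 2 and 5, which stood apart, so these values cannot exclude a shared batch. Ppp1r15a turned in sign with voom (-0.013), with log2(TPM + 1) without the pair of wells (-0.020) and in 4 fits that left out 1 library (such fits ranged from -0.092 to 0.062). Depth limits wild-type well 2 most.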
